A study of Mus musculus with 4 samples.

Results

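Nppa and Nppb, the genes of the 2 cardiac natriuretic peptides, were followed through the snRNA-seq (single-nucleus RNA sequencing) profiles of neonatal mouse cardiomyocytes. They were chosen by name, with earlier results of these data known, and they are 2 of the 22574 genes in the deposited matrix. Both were measured as UMIs (unique molecular identifiers, counts of captured RNA molecules) in 8585 nuclei, 1406 from WT-Sham, 2003 from WT-MI, 3328 from KO-Sham and 1848 from KO-MI.

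All mice had the C57BL/6 background and carried Nrf1 alleles flanked by loxP sites (Nrf1 fl/fl). In the KO groups these alleles were deleted by Cre under the aMHC promoter, which is active in cardiomyocytes, whereas the WT groups were Nrf1 fl/fl without Cre. At postnatal day 3 (P3) the pups received either MI (myocardial infarction from a ligature around the left anterior descending artery) or Sham surgery without it, and nuclei were prepared 1 day later from tissue below the ligation plane, pooled from 4 to 6 hearts of a genotype. Each group is therefore 1 library from 1 pool of animals, and no difference below has a replicate check or a p-value. Total cardiac nuclei were sequenced, but the matrix holds cardiomyocyte nuclei alone, with the deposited labels CM1 (CM1 and CM3 merged), CM2, CM4, the population the study calls regenerative, and CM5, the one it calls injury-responsive.

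Natriuretic peptides are hormones of the heart muscle. Nppa encodes the precursor of atrial natriuretic peptide (ANP) and Nppb that of B-type natriuretic peptide (BNP), and stretch of the muscle releases both. The peptides are cut from their precursors by the proteases corin and furin, bind the receptor guanylyl cyclase Npr1, raise cyclic GMP and lower blood pressure and volume, while Npr3 clears them. Nppa is expressed in atria and ventricles of the embryo, falls in the ventricles around birth and returns in the stressed ventricle, where Nppb rises as well.

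The genes are neighbours. In the GENCODE M21 annotation of GRCm38, Nppb spans chr4:147985788-147987205 and Nppa chr4:148000722-148002079, both on the forward strand, each protein coding with 3 exons and separated by 13516 bases. Total exon length is 781 bases for Nppb and 865 bases for Nppa, and the 3′ kit counts 1 end of each molecule, so counts of the genes are compared below without scaling by length. Gm13054, an antisense gene at chr4:148001091-148004014 on the reverse strand, overlaps the second and the third exon of Nppa. Whether strand was used in the counting is not stated, so UMIs of the overlap cannot be assigned with certainty, but Gm13054 itself held only 3 UMIs in WT-Sham, 17 in WT-MI, 4 in KO-Sham and 19 in KO-MI, at most 0.334% of the UMIs of both genes together (WT-Sham).

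The sequence before each start is shown because both genes moved together with surgery in every population. The stretches are from the RefSeq promoter windows (GRCm38.p6), forward strand, 5′ to 3′, which cover 250 bases before to 50 bases after each start and were found for both genes. Capitals mark matches, on either strand, to GATAA (the GATA factor motif), TNAAGTG (NK2 homeobox factors), AGGTGT (T-box factors), GGAATG (the M-CAT motif of TEAD factors) and TATAAA (the TATA box). For Nppa the stretch covers chr4:148000472-148000721, the bases before its start. RefSeq begins Nppb at 147985900, 112 bases after the start in GENCODE, so only the pieces of its window that hold a match are given, chr4:147985794-147985822 and chr4:147985857-147985886.
Nppa: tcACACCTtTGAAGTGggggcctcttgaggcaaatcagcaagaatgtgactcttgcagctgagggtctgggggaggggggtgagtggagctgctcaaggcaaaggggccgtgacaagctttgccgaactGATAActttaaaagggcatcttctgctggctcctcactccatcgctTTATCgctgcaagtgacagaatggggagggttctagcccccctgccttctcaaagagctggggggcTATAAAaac
Nppb, GATA and M-CAT matches: aGGAATGcagctGATAAatcagaGATAAc
Nppb, TATA match: actcagccccagTATAAAaggcagaggcac

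Each window held 2 GATAA matches and 1 TATAAA match. GATAA was found in 25.4% and TATAAA in 13.6% of all 32851 promoter windows. The Nppa window also held 1 match to TNAAGTG, found in 11.5% of windows, and 1 to AGGTGT, found in 13.7%, whereas the Nppb window held 1 match to GGAATG, found in 14.7%. No marked matches overlap. Neither window held the letters of the AP-1 motif TGANTCA (7.81% of windows), of the antioxidant response element TGACNNNGC (12.4%), of the CArG box (1.63%) or of the MEF2 motif (3.19%). A match describes these letters only.

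The libraries held 4984625 (WT-Sham), 7955986 (WT-MI), 9106522 (KO-Sham) and 7359887 UMIs (KO-MI), and the median nucleus 2572 UMIs in KO-Sham against 3553.5 to 3959 in the others. The median share of UMIs from the mitochondrial genome was 6.58% in WT-Sham, 5.37% in WT-MI, 8.98% in KO-Sham and 5.29% in KO-MI, and totals without these UMIs moved no log2 ratio of either gene beyond its interval. Nfe2l1, which encodes Nrf1, stood at 62.2 CPM in WT-Sham, 47.4 in WT-MI, 50.5 in KO-Sham and 55.3 in KO-MI. It was therefore not lower in the library labelled KO-MI than in that labelled WT-MI, and where Nfe2l1 goes against a genotype label, the direction of a genotype comparison is that of the labelled libraries. The whole gene was counted, so a deletion of part of it need not lower this value. Summed markers of cardiomyocytes (8 of 8 listed genes present, Tnnt2 and Myh6 among them) lay between 32373 and 38134 CPM in every library. Of the 8 atrial genes, Bmp10 and Sbk2 were at or near 0 in all libraries, and Kcnj3 stood at 49.5 to 128.0 CPM. The summed atrial list stood at 161.1 CPM in WT-Sham, 87.9 in WT-MI, 151.4 in KO-Sham and 169.7 in KO-MI. For KO over WT after MI, 4 of the 6 atrial genes with enough UMIs were 1.5-fold or more higher, against 3.94% of all genes. Of the barcodes, 9 were found in 2 libraries (18 nuclei), and leaving those nuclei out moved no log2 ratio of either gene beyond its interval.

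Both genes were low after Sham surgery and high after MI. Summed over all nuclei, Nppa stood at 179.6 CPM (counts per 1000000 UMIs of the sum) in WT-Sham, with an exact 95% Poisson interval of 168.0 to 191.7, at 2407 in WT-MI (2373 to 2441), at 296.6 in KO-Sham (285.5 to 308.0) and at 3233 in KO-MI (3192 to 3274). Nppb stood at 53.0 CPM in WT-Sham (46.8 to 59.8), 927.5 in WT-MI (906.4 to 948.9), 118.6 in KO-Sham (111.6 to 125.9) and 1127 in KO-MI (1103 to 1152). The order of the libraries was the same for both genes, WT-Sham lowest, then KO-Sham, WT-MI and KO-MI, and no neighbours in that order had overlapping intervals. These intervals, and all others here, cover counting error only and not the spread between hearts or libraries.

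**Figure D1:**
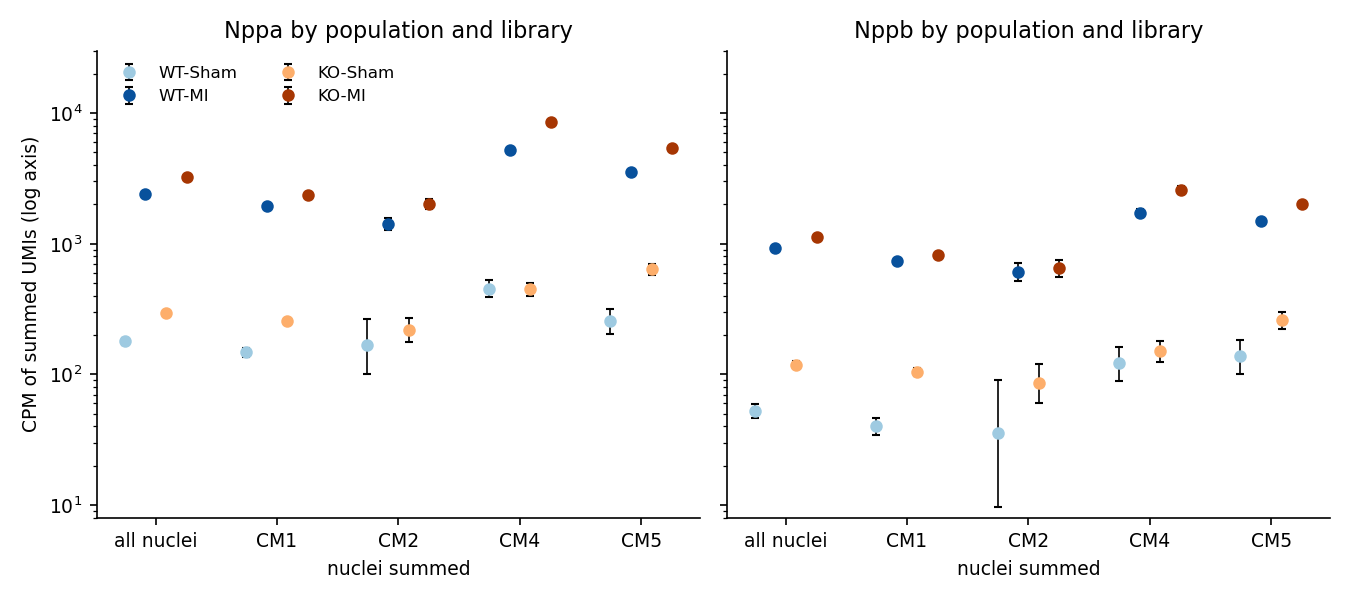
Level of Nppa (left) and Nppb (right) in CPM of summed UMIs on a log axis, for all nuclei and for each population (x axis), in the 4 libraries (colors). Points are single libraries and bars exact 95% Poisson intervals, and both MI points lie above both Sham points in every column, with CM4 of KO-MI highest at 8540 CPM of Nppa and 2572 CPM of Nppb.

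Nppa was 13.4-fold higher in WT-MI than in WT-Sham (log2 ratio 3.74, interval 3.65 to 3.84) and Nppb 17.5-fold higher (4.13, 3.95 to 4.31). Of the 13415 genes whose 2 sums held at least 20 UMIs together, these ratios ranked 42 for Nppa and 26 for Nppb from the highest, and 0.686% of those genes were 8-fold or more higher. In the libraries labelled KO, Nppa was 10.9-fold higher after MI (3.45, 3.39 to 3.5) and Nppb 9.5-fold higher (3.25, 3.16 to 3.34), ranks 45 and 59 of 13806 genes, of which 0.529% were 8-fold or more higher. A difference of 1.5-fold or more in the same direction was shared by 12.5% of genes in WT and 14.1% in KO. The rise of Nppb was smaller in KO by 0.88 on the log2 scale (interval 0.68 to 1.08, approximate) and that of Nppa by 0.30 (0.19 to 0.41), and these intervals, again of counting error alone, are no test between hearts.

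The increase was seen in all 4 populations. After MI, Nppa was 8.35-fold (CM2) to 13.9-fold (CM5) higher in WT and 8.49-fold (CM5) to 19.0-fold (CM4) higher in KO. For Nppb the range was 10.9-fold (CM5) to 18.3-fold (CM1) in WT and 7.55-fold (CM2) to 17.1-fold (CM4) in KO. CM2 of WT-Sham held 27 nuclei with 19 Nppa and 4 Nppb UMIs, so that its Nppb ratio carried an interval from 6.57-fold to 63.7-fold. The sizes in CM5 varied with the nuclei kept. Without the 10 nuclei with most of the gene, the log2 ratio in CM5 was 5.01 in place of 3.79 for Nppa in WT. It was 3.94 in place of 3.09 for Nppa in KO and 4.50 in place of 3.44 for Nppb in WT. CM5 held 89 nuclei in WT-Sham against 339 in WT-MI, and 234 in KO-Sham against 355 in KO-MI. The 10 nuclei were thus a larger part of the Sham sums, which by itself raises these ratios. Under the label transferred from the study's earlier reference, most nuclei of CM5 and CM2 exchange names, as given below. Nppa in WT was at 3.97 in transferred CM2, near the 3.79 of final CM5. In transferred CM5 it was at 3.01, near the 3.06 of final CM2. Nppb in WT was at 4.43 in transferred CM5, against 4.10 in final CM2. With only nuclei at or under their library's median for summed markers of other cells, CM5 in WT gave 4.60 for Nppa and 4.11 for Nppb. Of the genes with 20 or more UMIs in the CM4 sums, 0.606% in WT and 0.237% in KO were 8-fold or more higher after MI.

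**Figure D2:**
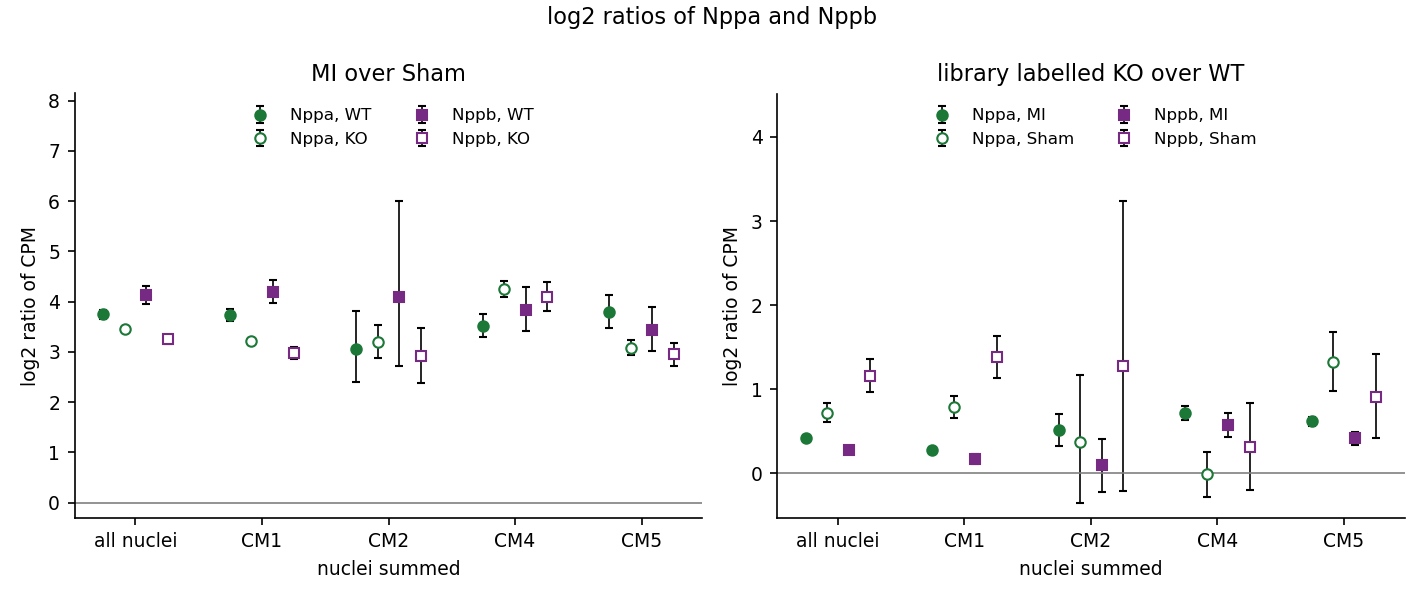
log2 ratio of CPM of Nppa (green circles) and Nppb (purple squares), for all nuclei and each population. Left, MI over Sham in WT (filled) and KO (open), right, KO over WT after MI (filled) and Sham (open), each point 1 pair of libraries with its exact 95% interval; every ratio on the left lies above 2.9, and on the right Nppa in CM4 is 0.72 after MI and −0.01 after Sham.

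Levels also differed between populations within a library. After MI, CM4 held the most of both genes and CM5 the next most. Nppa in CM4 was 8540 CPM in KO-MI (8234 to 8855) and 5186 in WT-MI (4971 to 5408), in CM5 5439 (5318 to 5563) and 3538 (3443 to 3635), in CM1 2374 (2333 to 2416) and 1961 (1925 to 1997), and in CM2 2020 (1859 to 2190) and 1410 (1269 to 1563). Nppb in CM4 was 2572 CPM in KO-MI (2405 to 2748) and 1730 in WT-MI (1607 to 1860), in CM5 2008 (1934 to 2083) and 1504 (1442 to 1568), in CM1 827.5 (803.2 to 852.3) and 736.4 (714.5 to 758.8), and in CM2 651.4 (561.8 to 751.2) and 609.9 (518.2 to 713.1). The order CM4, CM5, CM1, CM2 was thus the same for both genes and in both MI libraries, and no neighbouring intervals overlapped.

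The order was less clear after Sham surgery. In KO-Sham, CM5 had the highest sums, with 640.6 CPM of Nppa (579.9 to 706.0) and 259.7 of Nppb (221.6 to 302.5), followed by CM4 with 449.0 (401.7 to 500.3) and 150.6 (123.8 to 181.5), CM1 with 255.9 (244.4 to 267.7) and 105.0 (97.7 to 112.7), and CM2 with 219.5 (176.3 to 270.1) and 86.3 (60.1 to 120.1). A single CM5 nucleus of KO-Sham carried 130 of the 407 Nppa UMIs and 25 of the 165 Nppb UMIs of that sum. Without it CM5 was at 438.9 CPM of Nppa (388.7 to 493.7), below CM4 with overlapping intervals, and at 221.8 of Nppb (186.6 to 261.8), still above CM4. In WT-Sham, CM4 led for Nppa with 452.6 CPM (388.7 to 524.0), above CM5 with 255.2 (203.3 to 316.4), CM2 with 168.9 (101.7 to 263.7) and CM1 with 147.9 (136.4 to 160.1), while Nppb was 138.4 in CM5 (100.9 to 185.1), 121.4 in CM4 (89.5 to 160.9), 40.2 in CM1 (34.4 to 46.8) and 35.6 in CM2 (9.69 to 91.0). The intervals of CM1 and CM2 overlapped for both genes in both Sham libraries, and in WT-Sham so did those of CM2 and CM5 for Nppa and of CM4 and CM5 for Nppb. The populations are clusters of the same nuclei, in which these genes were counted, so the levels are given as a description.

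The names of the smaller populations depend on the label used. Of the 1017 nuclei finally called CM5, 743 carried CM2 as the label transferred from the study's earlier reference, and 197 of the 275 finally called CM2 carried CM5. The population with the second highest level after MI was therefore the transferred CM2, with 5037 CPM of Nppa in KO-MI (4912 to 5165) and 3396 in WT-MI (3296 to 3499), and transferred CM5 was low, with 1950 (1763 to 2151) and 1603 (1404 to 1823). CM4 led under both labels, with 6593 CPM of Nppa in KO-MI (6351 to 6842) and 4264 in WT-MI (4087 to 4447) by the transferred one. The study's text was not used to choose between the labels, and the final ones are used throughout.

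CM1 held most of the UMIs because it held most of the nuclei. In KO-MI, CM4 and CM5 made up 6.39% and 19.2% of nuclei and held 12.3% and 32.1% of Nppa UMIs and 10.7% and 34.0% of Nppb UMIs. In WT-MI they made up 9.59% and 16.9% of nuclei and held 11.4% and 27.3% of Nppa UMIs and 9.88% and 30.1% of Nppb UMIs. CM4 nuclei were shallower than the rest, with medians of 1852.5 (WT-MI) and 2394 UMIs (KO-MI), and its summed markers of fibroblasts, endothelial cells and red blood cells were higher in CPM than over all nuclei in all 4 libraries. Within CM1 of WT-MI, the shallowest of 4 equal groups of nuclei by depth had 2289 CPM of Nppa and 862.5 of Nppb, against 1740 and 637.1 in the deepest of the 4 groups, and in KO-MI 3010 and 975.0 against 1934 and 713.6. The part of depth in the difference between populations was not tested.

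The library labelled KO was higher than WT in most but not all sums. After MI, over all nuclei, Nppa was 1.34-fold higher (log2 ratio 0.43, 0.40 to 0.45) and Nppb 1.22-fold (0.28, 0.24 to 0.33), with ranks 1129 and 2317 among 13678 genes, of which 3.94% were 1.5-fold or more higher, neither of these genes among them. After Sham, Nppa was 1.65-fold higher (0.72, 0.61 to 0.83) and Nppb 2.24-fold (1.16, 0.97 to 1.36), ranks 403 and 119 of 13370, of which 5.74% were 1.5-fold or more higher. CM1 gave the same picture, with Nppb 2.61-fold higher in Sham (2.20 to 3.10) against 1.12-fold after MI (1.08 to 1.17). Depth differed as well, with a median of 2572 UMIs per nucleus in KO-Sham against 3553.5 in WT-Sham. Within CM1 of KO-Sham, the shallowest of the 4 depth groups had 319.4 CPM of Nppa and 122.2 of Nppb, against 220.3 and 88.8 in the deepest. In CM1 of WT-Sham the values were 174.5 and 52.0 against 128.1 and 33.2. The part of depth in this genotype difference was not tested.

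In CM4 the KO over WT ratio of Nppa was larger after MI than after Sham, by 0.73 on the log2 scale (0.46 to 1.01, approximate), which was not tested between hearts. Nppa was 1.65-fold higher after MI (log2 ratio 0.72, 0.64 to 0.80), where 12.3% of 5686 genes were 1.5-fold or more higher, and did not differ beyond counting error after Sham (−0.01, −0.28 to 0.26). Nppb in CM4 was 1.49-fold higher after MI (0.57, 0.43 to 0.72) and 1.24-fold after Sham (0.31, −0.19 to 0.83). Without the 10 CM4 nuclei per library that held most of the gene, the ratio after MI was 0.41 for Nppa and 0.22 for Nppb. That of Nppa after Sham was then 0.38 (0.06 to 0.71). CM4 held 118 nuclei in KO-MI, 192 in WT-MI, 351 in KO-Sham and 192 in WT-Sham. The same 10 nuclei are thus unequal parts, which by itself lowers the ratio after MI and raises that after Sham. Whether few nuclei decided these values can therefore not be read from this. Without the nuclei with a UMI of the atrial list the ratio after MI was 0.31 for Nppa and 0.54 for Nppb. The summed atrial list stood at 1260 CPM in CM4 of KO-MI and at 118.8 to 139.6 in CM4 of the other libraries. Its light chains Myl7 and Myl4 stood at 608.1 and 547.0 CPM there, against 10.1 to 23.7 and 28.7 to 61.7 in CM4 of the others. Leaving out nuclei with 5 or more UMIs of both light chains together moved no log2 ratio of either gene beyond its interval. The part of the atrial genes in the difference was not tested further. In CM5 Nppa was 1.54-fold higher in KO-MI (1.48 to 1.59) and Nppb 1.34-fold (1.26 to 1.41). CM2, with 57 and 67 nuclei after MI, gave 1.43-fold for Nppa (1.25 to 1.64) and 1.07-fold for Nppb (0.86 to 1.33).

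After MI, nearly all nuclei had a UMI of Nppa and most had one of Nppb. Nppa had a UMI in 36.9% of WT-Sham nuclei (exact Clopper-Pearson interval 34.4 to 39.5), 48.7% of KO-Sham (46.9 to 50.4), 99.6% of WT-MI (99.1 to 99.8) and 99.9% of KO-MI (99.6 to 100). Nppb had one in 15.0% (13.2 to 17), 25.6% (24.2 to 27.2), 92.2% (90.9 to 93.3) and 93.6% (92.3 to 94.6). With each nucleus thinned to 1000 UMIs, which left out 7 shallower nuclei (6 of WT-Sham and 1 of WT-MI), the shares for Nppa were 15.1%, 23.7%, 83.1% and 88.0% and those for Nppb 5.64%, 10.8%, 56.2% and 59.6% in the same order. CM4 of KO-MI had the highest thinned shares, 99.2% for Nppa and 81.4% for Nppb.

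RNA free in the suspension gives UMIs in nuclei that do not express a gene, and no cell type that lacks these genes is in the matrix. Hbb-bs, a red-cell globin, was therefore set beside them. It had a UMI in 96.9% of WT-Sham, 85.0% of KO-Sham, 99.6% of WT-MI and 98.3% of KO-MI nuclei, with median counts of 3.5, 2, 7 and 4. Nppa had median counts of 0, 0, 7 and 9, and at the 5th percentile 2 in WT-MI and 3 in KO-MI, near the 3 and 1 of Hbb-bs. In Sham the shares for Nppa and Nppb lay below that of the globin, and after MI the share for Nppa was at it. The share of 1 gene cannot set the background of another, so a single UMI is not taken to show expression by that nucleus. How much of either gene was free RNA was not tested. The summed level of Hbb-bs was 1852 CPM in WT-Sham, 2300 in WT-MI, 1315 in KO-Sham and 1144 in KO-MI.

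**Figure D3:**
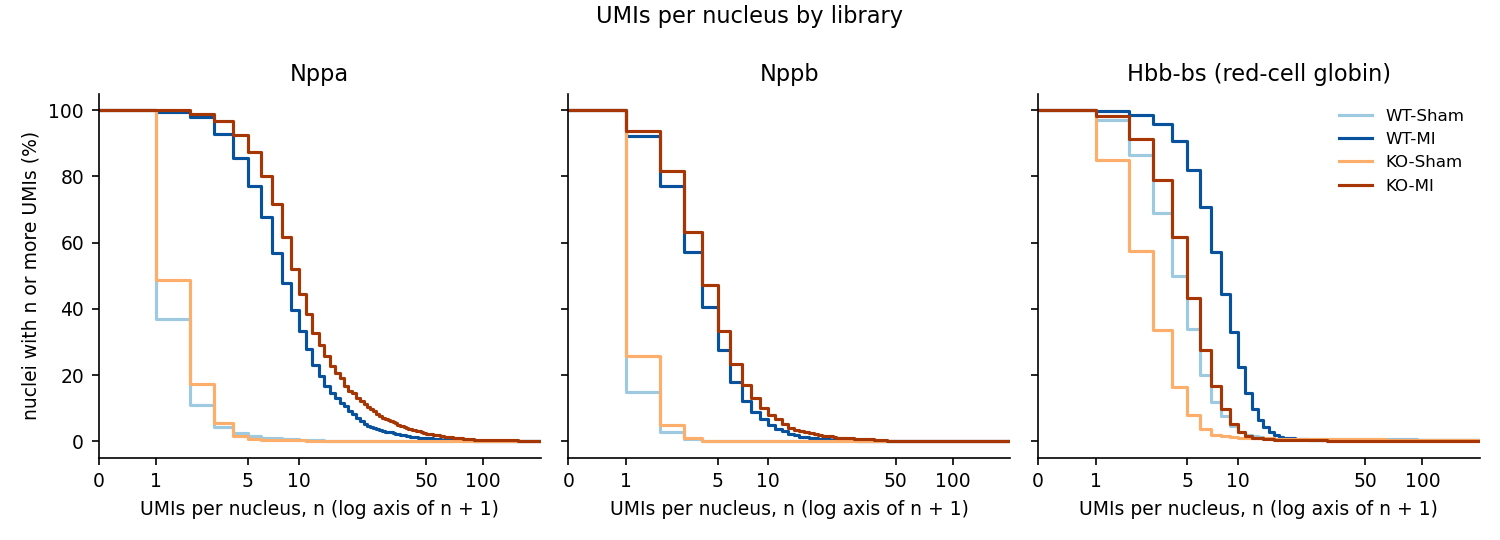
Percent of nuclei (y axis) with n or more UMIs (x axis, log axis of n + 1) of Nppa, Nppb and the red-cell globin gene Hbb-bs in the 4 libraries. The MI curves of Nppa and Nppb lie to the right of the Sham curves over the whole range, whereas the Hbb-bs curves of WT-Sham and KO-MI run close to each other.

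Above single UMIs the counts per nucleus had long tails. In KO-MI the 95th percentile of Nppa was 34.65 UMIs and the highest nucleus, in CM4, held 482 with 117 of Nppb. In WT-MI the 95th percentile was 23 and the highest nucleus, in CM5, held 200 Nppa and 59 Nppb UMIs. The 10% of nuclei with most Nppa held 31.4% of its UMIs in WT-MI and 35.9% in KO-MI, and the 10% with most Nppb 30.9% and 35.0% of Nppb UMIs, against 21.3% and 20.9% for Tnnt2, the cardiac troponin T gene. After thinning, the variance of the counts was 4.45 times their mean for Nppa in KO-MI, 3.16 in WT-MI, 1.98 in KO-Sham and 1.83 in WT-Sham. For Nppb it was 2.02, 1.59, 1.06 and 1.17, and for Tnnt2 1.46, 1.44, 1.16 and 1.49, where counting alone gives a value near 1.

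How often Nppa and Nppb were found in the same nuclei depended on the number of UMIs asked for. With 1 or more of each, both had a UMI in 91 nuclei of WT-Sham where the product of the shares gives 77.9, in 450 of KO-Sham (415.0), in 1839 of WT-MI (1838) and in 1727 of KO-MI (1727). The ratio of found to expected was 1.17 in WT-Sham (0.94 to 1.43) and 1.08 in KO-Sham (0.99 to 1.19). These intervals take the count found as Poisson with the expectation held fixed, which makes them wide. In KO-Sham Nppa was found in 52.8% of nuclei with Nppb (49.3 to 56.1) and 47.2% of those without (45.2 to 49.2), with no overlap. After thinning to 1000 UMIs these shares were 26.9% (22.4 to 31.8) and 23.3% (21.8 to 24.9), with overlap. In WT-Sham the unthinned shares were 43.1% (36.3 to 50.1) and 35.8% (33.1 to 38.6), with overlap. With 2 or more UMIs of each the ratio was 1.66 in KO-Sham (1.23 to 2.20) and 1.86 in WT-Sham (0.80 to 3.67). In KO-Sham it was 1.55 (1.15 to 2.06) with the expectation formed within 10 groups of nuclei of like depth. After MI nearly every nucleus had both and the ratio was 1.0 in both libraries, which says nothing of co-variation. After thinning to 1000 UMIs it was 1.34 in WT-Sham (0.76 to 2.17), 1.14 in KO-Sham (0.92 to 1.39), 1.03 in WT-MI (0.97 to 1.10) and 1.04 in KO-MI (0.98 to 1.11). The MI values are near saturation as well, since at these shares of Nppa the ratio could not pass 1.20 in WT-MI and 1.14 in KO-MI. In WT-MI the thinned share of nuclei with Nppa was 85.7% (83.5 to 87.7) where Nppb was found and 79.8% (77.0 to 82.4) where it was not. In KO-MI these shares were 91.8% (90.1 to 93.4) and 82.4% (79.5 to 85.1), and neither pair of intervals overlapped. Within CM1 they were 82.4% (79.4 to 85.1) and 78.3% (75.1 to 81.3) in WT-MI, with overlap. In CM1 of KO-MI they were 89.1% (86.5 to 91.3) and 80.7% (77.3 to 83.8), without overlap. With the expectation formed within populations, the thinned ratio was 1.02 in WT-MI (0.95 to 1.08) and 1.03 in KO-MI (0.97 to 1.10).

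With larger amounts required, more nuclei held both genes than expected in WT-MI, KO-MI and KO-Sham. With 5 or more UMIs of each gene required, both were found in 496 nuclei of WT-MI where 426.6 were expected, a ratio of 1.16 (1.06 to 1.27), or 1.13 (1.03 to 1.24) within the depth groups. In KO-MI the ratio was 1.09 (1.0 to 1.18) for 584 nuclei, and 1.08 (0.99 to 1.17) within the depth groups. These intervals reach 1 but are of the same wide kind and overlap those of WT-MI, so they do not set the 2 libraries apart. The highest ratio possible at this mark was not computed. In KO-Sham 4 nuclei reached this mark where 0.0376 were expected, a ratio of 106 (29.0 to 273), or 45.8 (12.5 to 117) within the depth groups, and in WT-Sham none did where 0.0313 were expected, which allows a share of up to 0.213% of its 1406 nuclei.

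**Figure D4:**
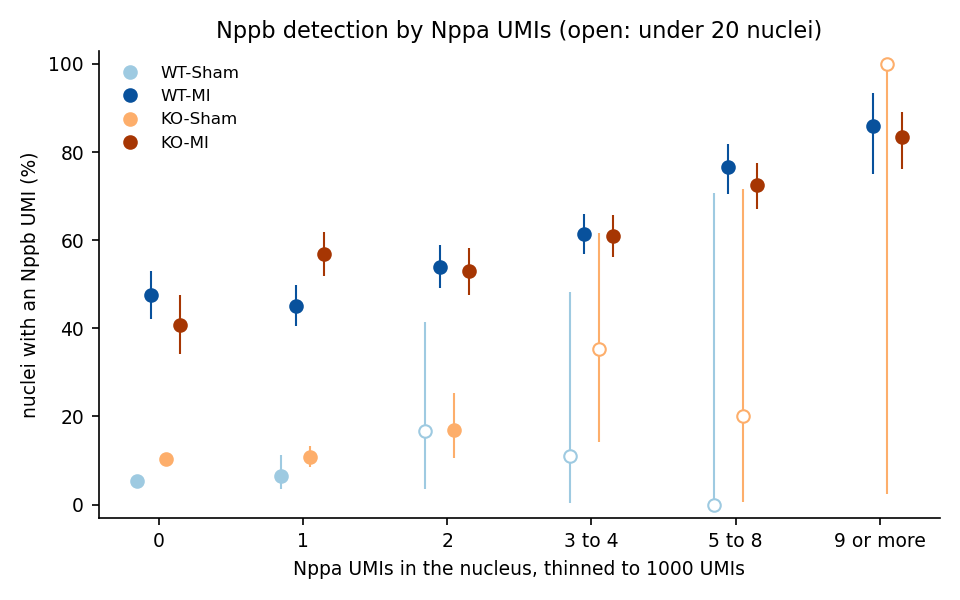
Percent of nuclei with an Nppb UMI (y axis, bars exact 95% intervals) by the number of Nppa UMIs in the nucleus (x axis), after thinning each nucleus to 1000 UMIs, in the 4 libraries; open points rest on under 20 nuclei. In WT-MI the share is 47.6% at 0 Nppa UMIs and 85.9% at 9 or more, and in KO-MI 40.7% and 83.5%.

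The share with Nppb was higher at high Nppa in the thinned counts, though not at each step. In WT-MI 47.6% of nuclei without an Nppa UMI had an Nppb UMI (42.2 to 53.1), 45.2% of those with 1 (40.6 to 49.8), 54.0% of those with 2 (49.1 to 58.9), 76.5% of those with 5 to 8 (70.5 to 81.8) and 85.9% of those with 9 or more (75.0 to 93.4). In KO-MI the shares were 40.7% (34.2 to 47.5), 56.9% (52.0 to 61.8), 52.9% (47.6 to 58.2), 72.5% (67.1 to 77.6) and 83.5% (76.2 to 89.2). Within CM1 of WT-MI it went from 45.0% at 0 (39.0 to 51) to 69.9% at 5 to 8 (60.1 to 78.5), and within CM1 of KO-MI from 40.4% (33.4 to 47.7) to 65.1% (57.0 to 72.7) and 62.1% at 9 or more (42.3 to 79.3, 29 nuclei). In Sham the shares at 0 and 1 Nppa UMIs were 5.30% and 6.59% in WT-Sham and 10.4% and 10.7% in KO-Sham, with overlapping intervals, and bins above held 112 nuclei or fewer.

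The nuclei richest in the genes overlapped after MI. Of the 10% of nuclei with the highest share of UMIs from Nppa, 91 of 185 in KO-MI (49.2%) and 81 of 200 in WT-MI (40.5%) were also in the 10% richest in Nppb, against 66 of 333 in KO-Sham (19.8%) and 24 of 141 in WT-Sham (17%), where independent genes would share 10%. Within CM1 the values were 31.3% in KO-MI, 26.8% in WT-MI, 15.6% in KO-Sham and 15.5% in WT-Sham. Across nuclei, after thinning, Spearman's rho of Nppa with Nppb was 0.29 in KO-MI (n = 1848 nuclei), 0.25 in WT-MI (n = 2002), 0.03 in KO-Sham (n = 3328) and 0.04 in WT-Sham (n = 1400). Such nuclei share a library and their counts are sparse, and in Sham these values are no finding. With Hbb-bs the rho of Nppa was 0.09 in KO-MI and 0.12 in WT-MI, and with Ankrd1 0.23 and 0.17. Within CM1 the rho of Nppa with Nppb was 0.155 in KO-MI (n = 1308) and 0.155 in WT-MI (n = 1415).

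After Sham some of the nuclei highest in Nppa held no Nppb. The 14 nuclei of WT-Sham with most Nppa (the top 1%) carried 6 to 32 Nppa UMIs, and 11 of them (78.6%) had no Nppb, against 85.0% of all WT-Sham nuclei. Among the 33 such nuclei of KO-Sham, with 4 to 130 Nppa UMIs, 14 (42.4%) had none, against 74.4% of all KO-Sham nuclei. The 20 of WT-MI and the 18 of KO-MI all had Nppb, at least 4 and 3 UMIs. These nuclei were picked for Nppa, so their own ratio of Nppa to Nppb is not compared. The highest Sham nuclei outside CM5 were CM1 nuclei of WT-Sham with 32 and 29 Nppa UMIs and of KO-Sham with 28, all without Nppb, with 2, 0 and 2 UMIs of Myl4, 0 of Myl7 and 19, 10 and 59 of Myl2, the ventricular light chain.

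The balance between the genes shifted far less than their levels. Over all nuclei the ratio of Nppa to Nppb UMIs was 3.39 in WT-Sham (2.95 to 3.90), 2.59 in WT-MI (2.53 to 2.67), 2.50 in KO-Sham (2.33 to 2.69) and 2.87 in KO-MI (2.80 to 2.94). It was thus lower after MI in WT and higher after MI in KO, without overlap of intervals. After MI it lay between 2.31 (CM2) and 3.0 (CM4) in WT and between 2.71 (CM5) and 3.32 (CM4) in KO. It was lowest in CM5 of WT-Sham at 1.84 (1.27 to 2.71), and 4.75 in CM2 of WT-Sham rests on 4 Nppb UMIs. Nuclei with 5 or more UMIs of Myl7 and Myl4 together, which were chosen by neither peptide, stood apart. The 11 of them in KO-MI, 8 in CM4, had 11530 CPM of Nppa (10511 to 12621) and 1325 of Nppb (995.2 to 1729), a ratio of 8.70 against 2.83 in the rest, and 2 nuclei of WT-MI gave 9.07 against 2.58. Each Sham library had 1 such nucleus, with at most 1 UMI of Nppa.

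Summed over all nuclei, none of the 6 counted genes that process or sense the peptides was 1.5-fold or more higher after MI. Of all genes, 12.5% in WT and 14.1% in KO were higher by that mark, so 0 of 6 lies near the background. The list of processing enzymes and receptors held 8 genes (Nppc, the C-type peptide, Corin, Furin, Pcsk6, Npr1, Npr2, Npr3 and Mme), of which 6 had enough UMIs. After MI in WT 0 of the 6 were higher by that mark and 2 lower (Npr1 and Pcsk6, with 15.9% of all genes lower), with a median log2 ratio of −0.52 against −0.07 over all genes, and in KO 0 were higher and 1 lower (Npr1, with 12.5% of all genes lower), with a median of −0.38 against 0.04. Corin, which cuts pro-ANP, was by far the most abundant of them, at 420.7 CPM in WT-Sham, 291.1 in WT-MI, 351.5 in KO-Sham and 261.4 in KO-MI, a log2 ratio after MI of −0.53 in WT (−0.62 to −0.45) and −0.43 in KO (−0.51 to −0.35). Npr1, the receptor of both peptides, had 13 to 26 UMIs per library, with log2 ratios of −0.78 in WT (−1.99 to 0.42) and −0.69 in KO (−1.78 to 0.32), so its direction was not resolved. Within populations, Furin, which also cuts precursors, was higher by the 1.5-fold mark in CM4 in WT (0.82, −0.51 to 2.26) and KO (1.27, 0.18 to 2.37). So were Furin in CM5 in KO (0.62, −0.43 to 1.80) and Npr3 in CM5 in WT (0.75, −0.97 to 3.13). These rest on 23 to 44 UMIs per pair of sums. Corin was lower by that mark in CM5 in WT (−1.02, −1.42 to −0.61) and KO (−1.43, −1.77 to −1.09). It was also lower in CM4 in KO (−0.77, −1.36 to −0.22), and these 3 falls rest on 162 to 297 UMIs. In CM1, 0 of the 6 genes were higher and 3 lower in both genotypes. The shares of all genes past the mark are not given for these sums. Of the 6 cGMP effectors, Pde9a, a cGMP phosphodiesterase, was 1.5-fold or more higher after MI in both genotypes, from 2.21 to 4.15 CPM in WT and from 1.98 to 3.67 in KO, though both intervals held 0. Pde2a, another such enzyme, was higher by that mark in KO (0.89) and at 0.38 in WT. Prkg1, the cGMP-dependent kinase, was at −0.10 and −0.25.

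Of 16 genes for transcription regulators known from the developing heart, 2 were 1.5-fold or more higher and 3 lower after MI in WT, and 1 higher and 2 lower in KO. Over all genes the shares were 12.5% higher and 15.9% lower in WT and 14.1% and 12.5% in KO, so these counts lie near the background. The lowest was Hey2, a transcriptional repressor of the compact ventricular wall, at −1.35 in WT and −1.36 in KO, from 105.5 to 41.5 CPM and from 90.5 to 35.3 CPM. Tbx5, an activator of Nppa, was at −0.99 in WT, from 38.9 to 19.6 CPM, and −0.46 in KO. The highest in WT were Tbx3 at 1.20 (−0.15 to 2.79), a repressor of chamber genes with 6 UMIs in WT-Sham, and Srf, a muscle gene activator, at 0.66 (0.04 to 1.31), and in KO Hand2, a ventricular factor, at 0.62 (0.40 to 0.84). Tbx2, also a repressor of chamber genes, was at −0.81 and −0.62 with intervals that held 0. Gata4, an activator of both peptides, was at 0.24 in WT and 0.39 in KO. Among neighbours of the locus, 1 of 7 was higher and 0 lower in WT, and 1 higher and 1 lower (Agtrap) in KO, also near those shares. Plod1, a collagen lysyl hydroxylase, was the highest at 0.63 and 0.99, and Clcn6, the chloride transporter gene next to Nppa, stood at 0.39 and 0.36, against 3.74 and 3.45 for Nppa.

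Of the 6 ventricular stress genes, 6 were 1.5-fold or more higher after MI in both genotypes, against 12.5% of all genes in WT and 14.1% in KO. Their median log2 ratios were 2.56 in WT and 2.17 in KO, against −0.07 and 0.04 over all genes. Xirp2, an actin-binding protein of the intercalated disc, was highest at 4.26 in WT and 4.09 in KO, followed by Ankrd1, a titin-associated ankyrin repeat protein, at 3.32 and 3.09. The lowest were Myh7 at 0.81 in WT, the beta myosin heavy chain gene, and Flnc at 1.32 in KO, the filamin of muscle. For KO over WT in Sham, where Nppb was at 1.16, Acta1, the skeletal actin gene, was at 1.05, Tnfrsf12a at 0.50, Xirp2 at −0.13 and Myh7 at −0.37. The summed myeloid list moved with surgery and genotype as well, at 127.4 CPM in WT-Sham, 556.8 in WT-MI, 95.1 in KO-Sham and 283.6 in KO-MI. The summed red-cell list stood at 3296, 4520, 2318 and 2123 CPM in the same libraries. Fibroblast markers stood at 1162, 973.4, 1003 and 995.8 CPM and endothelial markers at 573.2, 516.8, 870.8 and 581.9. Mural markers (6 of 6 listed genes present) were higher after MI in both genotypes, at 71.8, 128.7, 73.7 and 148.0 CPM, and Tagln, a smooth muscle gene among them, had log2 ratios of 2.40 in WT and 2.39 in KO. The part of other cells' RNA in the levels of the peptides was not tested.

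Taken over both surgeries, each gene was the other's closest match. Over the 16 sums of 4 libraries by 4 populations, among 7079 genes with 500 or more UMIs, Pearson's r of log2(CPM + 1) between Nppa and Nppb was 0.99, and it was 0.98 over the 8 MI sums and 0.90 over the 8 Sham sums taken alone. Next for Nppa were Tpm2 (0.96), a tropomyosin gene, Tgm2 (0.95), a transglutaminase, Timp1 (0.94), an inhibitor of metalloproteases, and Tnfrsf12a (0.93), the TWEAK receptor. For Nppb they were Tgm2 (0.95), Ankrd1 (0.94), Tpm2 (0.94) and Ccn2 (0.94), a matrix-associated growth factor. The order differed within a surgery. Over the MI sums Tnfrsf12a was closer to Nppb (0.988) than Nppa was (0.981), and the likeness to Nppa was 0.95 for Tnfrsf12a, 0.90 for Tpm2, 0.87 for Tgm2 and 0.75 for Timp1. Over the Sham sums Tnfrsf12a (0.94) and Tgm2 (0.92) were closer to Nppa than Nppb was, Tnfrsf12a (0.91) was closer to Nppb than Nppa was, and the likeness to Nppa was 0.69 for Tpm2 and 0.47 for Timp1. That to Nppb was 0.94 for Tgm2 and Tpm2, 0.86 for Ccn2 and 0.77 for Ankrd1 over the MI sums and 0.88, 0.52, 0.71 and 0.74 over the Sham sums. The sums of a library share its pool and depth, so these values describe the profiles.

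**Figure D5:**
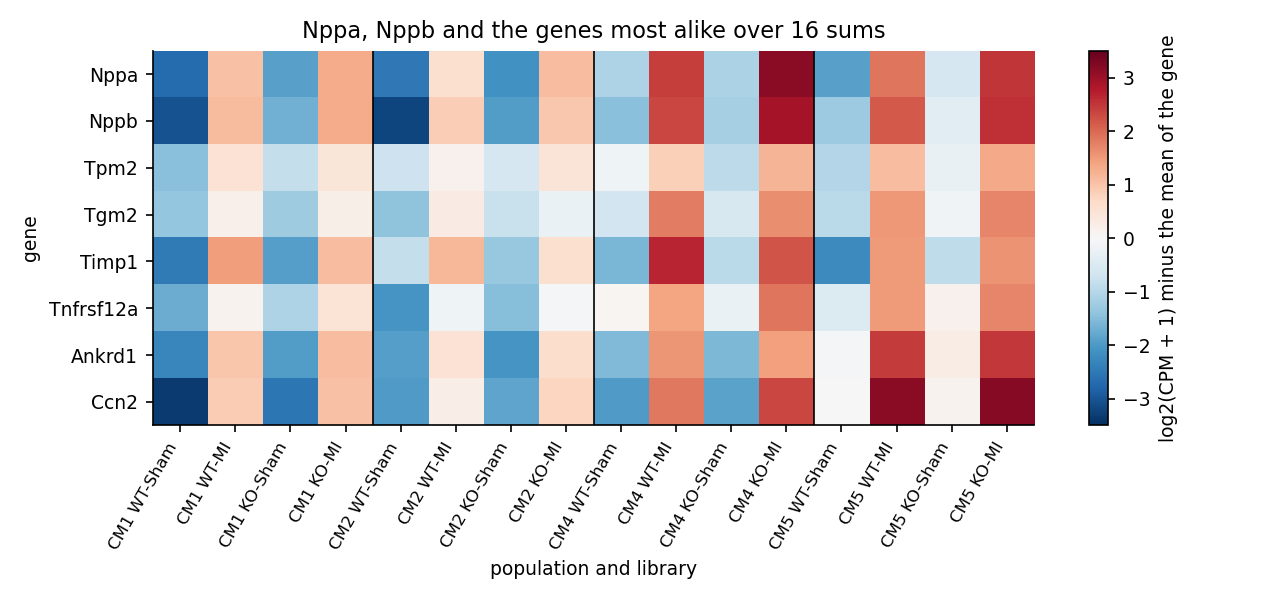
Heat map of log2(CPM + 1) minus the mean of each gene (color) for Nppa, Nppb and the genes most like them (rows) in the 16 sums of population and library (columns). For Nppa and Nppb the MI columns lie above the mean and the Sham columns below it in all 4 populations, with CM4 of KO-MI highest.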

How the data were processed

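Nuclei of 4 libraries, 1 per group, were analysed from the count matrix the authors deposited, which holds UMI counts per gene and nucleus without normalization. Per the study's methods and the submitters' processing notes, the authors aligned reads to mm10 (GRCm38, pre-mRNA reference) with Cell Ranger (version not given in the sources used here), removed doublets called by Scrublet, kept cardiomyocyte clusters and transferred labels with Seurat 3. No doublet caller was run again. The annotation release and the use of strand are not given in the sources used here, and the labels and the methods name different versions of the 10x 3′ kit. The transfer score the authors deposited, a fraction from 0 to 1, the percent of UMIs from the mitochondrial genome and the library of each nucleus were read from a second deposited table, of which 9 columns of values were not used.

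UMIs were summed per library and population and divided by the sum of all genes (CPM). Intervals are exact at 95%, Poisson for CPM, Clopper-Pearson for shares of nuclei and conditional binomial for log2 ratios. That of a difference of log2 ratios is approximate. That of found over expected is Poisson for the count found, with the expectation held fixed, and is wide. With 1 library per group no test was made. A fold of 1.5 was the mark for counting genes, of those whose 2 sums held at least 20 UMIs together. A share of 0 is given with the limit that 3 counts allow. Nuclei were thinned to 1000 UMIs at random (seed 1) to compare detection. Genes named from lists had 20 or more UMIs and were among the 2 highest or 2 lowest log2 ratios of their list or were defining markers; others named are the members, the 5 genes most alike, and Gata4, Clcn6, Prkg1, Acta1 and Tbx2, chosen after their values were seen. The members and lists were chosen with earlier results of these data known. Python 3.11.15, numpy 2.4.6, scipy 1.17.1, R 4.3.3 and edgeR 4.0.16 (scaling factors only) were used. The steps were tested on simulated counts. Library depth ran from 4984625 to 9106522 UMIs.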

Additional observations from a re-analysis of the deposited data

Results flagged for a closer look

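In CM4, the log2 ratio of Nppa for the library labelled KO over that labelled WT was 0.72 after MI (0.64 to 0.80) and −0.012 after Sham (−0.28 to 0.26). The 2 values differed in sign, but the direction after Sham was not resolved. With 1 library per group the difference was not tested, and the interval of the Sham value held 0. Without the 10 nuclei that held most Nppa in each library, the values were 0.41 after MI and 0.38 after Sham. These 10 nuclei were a larger part of CM4 in KO-MI than in WT-MI, and a smaller part in KO-Sham than in WT-Sham. That by itself brings the 2 ratios closer.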

How the results depend on the processing

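No paired analysis was possible because each group is 1 library and the labels give no replicate numbers, and for the same reason no replicate could be left out. Leaving out the 10 nuclei with most of the gene could not be computed where a CM2 sum was too small. MI over Sham was 2.62 or more on the log2 scale for both genes in every sum under each alternative run, of which a few were chosen after seeing the data (leaving out nuclei with shared barcodes, with high Myl7 and Myl4 or with most Nppa in CM5 of KO-Sham, and other marks for co-detection). Over all nuclei, log2 ratios moved beyond their intervals as follows. With nuclei of a low share from other cell types, MI over Sham was 3.86 (WT) and 3.37 (KO) for Nppa and 4.36 (WT) and 3.14 (KO) for Nppb, and KO over WT was 0.33 for Nppa after MI, 0.22 for Nppb after MI and 1.43 for Nppb after Sham. Without the 10 nuclei with most, Nppa was 3.92 for MI over Sham in WT and 0.39 for KO over WT after MI. KO over WT for Nppa after MI was 0.39 with median of ratios scaling, 0.39 thinned, 0.33 without nuclei with an atrial UMI and 0.46 with a transfer score of 0.5 or more. After Sham it was 0.61 thinned and 0.58 as a mean of CPM over nuclei, and Nppb was 0.89 thinned.

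In CM4, MI over Sham for Nppa was 2.97 in WT with a low share from other cell types, and in KO 4.06 as a mean over nuclei, 3.76 without the 10 nuclei, 3.89 without atrial UMIs and 4.03 with the transferred label. For Nppb it was 4.41 in WT and 3.67 in KO with a low share, and 3.71 in KO without the 10 nuclei. KO over WT for Nppa after MI was 0.81 with TMM scaling, 0.60 thinned, 0.58 as a mean over nuclei, 0.41 without the 10 nuclei, 0.31 without atrial UMIs, 1.28 with a low share and 0.63 with the transferred label, and after Sham 0.38 without the 10 nuclei. For Nppb it was 0.42 thinned, 0.22 without the 10 nuclei and 0.77 with a low share after MI, and 1.5 with a low share after Sham. In CM5, Nppb for KO over WT after MI was reversed to −0.25 under the transferred label, where other nuclei carry the name. The other causes were not tested. Found over expected co-detection was 1.86 in WT-Sham (0.80 to 3.67) and 1.66 in KO-Sham (1.23 to 2.20) with 2 or more UMIs of each gene.

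Genes 1.5-fold or more higher and lower numbered 1681 and 2129 (MI over Sham, WT), 1945 and 1722 (MI over Sham, KO), 539 and 503 (KO over WT, MI) and 768 and 750 (KO over WT, Sham). Without the filter on UMIs they numbered 3251 and 5460, 4398 and 3568, 2810 and 2360, and 2181 and 3849. With 50 or more UMIs the KO over WT counts were 221 and 202 after MI and 454 and 353 after Sham.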
